A study of Mus musculus with 28 samples.

Results

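The comparison set XEN-eYFP cells given Nodal together with the inhibitor SB431542 against the same cells given Cripto together with SB431542. The 8 arrays were chosen by their treatment labels, 3 with Nodal and SB431542 and 5 with Cripto and SB431542, of 28 arrays in the series. XEN-eYFP is a mouse line of extraembryonic endoderm stem cells, and every group was treated for 96 h. From each sample 200 ng of total RNA was labelled for Illumina MouseWG-6 v2 BeadChips, with 1 array for each sample. Nodal was given as recombinant protein at 50 ng/ml and Cripto as recombinant protein at 100 ng/ml, so the proteins differed in dose as well as in kind. The SB431542 dose is not in the labels, nor is it stated that arrays of a group were separate cultures, and p-values here reflect only the spread among the arrays, which may be technical. Values from 4 further groups of 5 arrays each are given beside the comparison where it calls for them: Nodal without inhibitor (50 ng/ml), Cripto without inhibitor (100 ng/ml), SB431542 without protein, and Media, in which cells received neither.

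Nodal belongs to the TGF-beta family of ligands. It signals through type I receptors such as Alk4 (gene Acvr1b) and type II activin receptors, whose kinases phosphorylate Smad2 and Smad3, and it uses EGF-CFC proteins such as Cripto (gene Tdgf1) as co-receptors. Cripto has also been described to act without Nodal and without the receptor kinase, through Src and the MAPK and PI3K pathways. SB431542 blocks the kinase of Alk4 and its relatives Alk5 and Alk7. XEN cells derive from primitive endoderm, the tissue that forms the visceral endoderm, an absorptive epithelium, and the parietal endoderm, which migrates and lays down a thick basement membrane. With the inhibitor on both sides, the comparison asks how far cells given the kinase-dependent ligand differ from cells given Cripto.

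The cells carried the markers of their labelled type. Of 12 XEN markers, 11 were detected on all 8 arrays, and Col4a2 was detected on 1 of 3 Nodal with SB431542 arrays and 4 of 5 Cripto with SB431542 arrays. Their summed normalised level was 215032 to 224689 intensity units with Nodal and SB431542 and 143848 to 169668 with Cripto and SB431542. Such a sum weighs the brightest markers most, and Gata6, Sox17 and Col4a2 were not higher with Nodal and SB431542. Of 8 fibroblast markers only Pdgfrb was detected, on all 8 arrays, and the summed level was 249.7 to 299.5 against 241.7 to 332.5. Of 5 epiblast and embryonic stem cell markers, Pou5f1 was detected on all 8 arrays and Zfp42 on 2 of 3 and 5 of 5 arrays. Nanog, Sox2 and Esrrb were detected on none, and the summed level was 216.7 to 237.6 against 273.9 to 354.0. Of 4 trophoblast markers only Cdx2 was detected, on 0 of 3 and 5 of 5 arrays, and the summed level was 106.4 to 120.7 against 169.1 to 265.9. Undetected markers add only background to these sums. The mean raw signal per array was 529.4 ± 95.1 with Nodal and SB431542 (SD, n = 3) and 781.0 ± 102.8 with Cripto and SB431542 (SD, n = 5; exact two-sided permutation p = 0.0357 over 56 splits). On the BeadChips that held both groups the ratio of the signals was 0.728 and 0.688. In these bulk samples fewer cells of a type and less RNA per cell cannot be told apart. What part marker levels and brightness had in the gene differences was not tested, apart from a fit with brightness as a covariate, which called 5979 genes.

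One array outside the pair stood apart from its group. Over all genes, with the BeadChip effects taken out, Nodal replicate 1 lay at a root mean square log2 difference of 0.558 from the mean of the other Nodal arrays, whereas the other 4 Nodal arrays lay at 0.223 to 0.270. The 3 Nodal with SB431542 arrays lay at 0.206 to 0.272 from their own group and the 5 Cripto with SB431542 arrays at 0.196 to 0.374. Differences that use the Nodal group without inhibitor are therefore followed by their value without that array, an alternative chosen after the data were seen.

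Cells given Nodal with SB431542 and cells given Cripto with SB431542 differed in most genes measured. Of 9951 genes, 6396 were called at an adjusted p below 0.05 (64.3% of genes tested), 3158 higher with Nodal and SB431542 (31.7%) and 3238 lower (32.5%; limma, Benjamini-Hochberg adjustment over all genes). At least 2-fold differences were called for 1682 genes higher and 1440 lower (31.4% of genes tested), 4-fold differences for 461 and 283, and 16-fold differences for 29 and 30. The count at 2-fold was 1803 without background correction and 1310 in the authors' deposited values, against 3122 here. The median absolute log2 difference of the called genes was 0.98, and the median signed difference over all genes was -0.01. Quantile scaling gives every array the same distribution. With median centring in its place, 2271 genes were higher and 3638 lower, 38.4% of calls higher against 49.4%, and the median of all genes lay at -0.21. Without Nodal replicate 1, which enters the fit through the BeadChip and variance estimates, 6782 genes were called.

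The direction held on both BeadChips that carried both groups for 6348 of the called genes (99.2%). The arrays on these BeadChips are among those that gave the calls, so this is no independent check. The 3 Nodal with SB431542 arrays lay wholly above the 5 Cripto with SB431542 arrays for 2952 genes and wholly below for 3074 (60.6% of genes tested in either direction). Of the 3555 genes that were not called, 3156 (88.8%) had a 95% interval that lay within a 2-fold difference in either direction. Detection also split the groups. Of the 9951 genes, 369 were detected on all 3 Nodal with SB431542 arrays and on no Cripto with SB431542 array. Another 203 were detected on no Nodal with SB431542 array and all 5 Cripto with SB431542 arrays, a stricter demand. Probes detected per array averaged 15561 with Nodal and SB431542 and 14572 with Cripto and SB431542 (exact two-sided permutation p = 0.125). Cripto with SB431542 replicates 4 and 5, on BeadChips 6 and 7, had 13727 and 14031. What part this had in the counts was not tested.

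The 15 genes with the largest excess in Nodal with SB431542 included Igfbp5, Nid1, Pmch, Col6a1 and Satb1. Igfbp5, whose product binds insulin-like growth factors, had log2 levels of 14.44, 14.32 and 14.45 with Nodal and SB431542 and of 7.5, 7.75, 8.14, 7.80 and 8.07 with Cripto and SB431542. The groups were far apart with no overlap, and the difference was 6.68 ± 0.38 (SE), or 102.7-fold (limma adjusted p = 7.43e-12). Nid1, whose protein nidogen 1 links laminin to collagen IV, had 14.66, 14.77 and 14.68 against 9.37, 9.19, 8.91, 8.72 and 9.02, a difference of 5.81 ± 0.21. Pmch, which encodes the precursor of melanin-concentrating hormone, had 10.59, 10.85 and 10.71 against 4.80, 4.88, 4.89, 4.78 and 4.86 and was detected on no Cripto with SB431542 array. Its fold was at least 27.7, taken against the lowest signal that counted as detected on each array.

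Col6a1 and Col6a2, which encode chains of collagen VI, were both among the genes with the largest excess, Col6a1 at 5.39 ± 0.38 and Col6a2 at least 10.45-fold higher. The chromatin organiser gene Satb1 had levels of 11.24, 11.35 and 11.47 against 6.18, 6.17, 6.39, 6.16 and 6.06. Tnik, a kinase that works with TCF4 in Wnt signalling, was at least 21.8-fold higher, the adhesion gene Sdk1 at least 16.8-fold and Acss1, a mitochondrial acetyl-CoA synthetase, at least 11.5-fold. The protease inhibitor gene Spink4 was at least 49.8-fold higher, Tmem176b at least 25.3-fold and Klre1, a lectin-like receptor gene, at least 14.9-fold. Clps, which encodes the lipase cofactor colipase, differed by 5.09 ± 0.20, Cep112 by 5.29 ± 0.14 and Spock1, a proteoglycan gene, by 5.12 ± 0.34.

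The 15 genes with the largest deficit included Cpn1, Car4, Gpc3 and Cldn6. Cpn1, which encodes the catalytic subunit of carboxypeptidase N, had log2 levels of 5.05, 5.54 and 5.93 with Nodal and SB431542, where it was detected on 1 of 3 arrays, and of 12.62, 12.42, 12.31, 12.55 and 12.35 with Cripto and SB431542. The difference was -7.08 ± 0.25 (limma adjusted p = 3.76e-15). The tight junction gene Cldn6 had 6.40, 6.54 and 6.49 against 12.32, 12.18, 12.20, 12.29 and 12.33, was detected on all 8 arrays, and differed by -5.64 ± 0.23, or 49.9-fold. Gpc3, a cell-surface glypican gene detected on 2 of 3 Nodal with SB431542 arrays, had 5.60, 5.32 and 5.82 against 11.19, 11.26, 11.37, 11.61 and 11.63. In all 3 genes the lowest Cripto with SB431542 array lay more than 5 log2 units above the highest Nodal with SB431542 array.

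Of the other genes with the largest deficit, 8 were detected on no Nodal with SB431542 array. These were Car4, a membrane-bound carbonic anhydrase (at least 52.9-fold lower), the RING finger gene Rnf130 (45.2-fold), Lypd10 (32.8-fold), Spsb1 (29.0-fold), Prxl2a (27.6-fold), Masp1, a protease of the lectin complement pathway (24.8-fold), the potassium channel gene Kcnk1 (22.1-fold) and the glutathione peroxidase gene Gpx2 (15.96-fold), each fold being a lower bound. The imprinted gene Phlda2, detected on 1 of 3 Nodal with SB431542 arrays, fell by 6.13 ± 0.19, the decarboxylase gene Ddc, detected on 2 of 3, by 5.91 ± 0.16, the troponin C gene Tnnc1 by 5.54 ± 0.26 and the focal adhesion gene Tns4 by 5.42 ± 0.24 on the log2 scale. For genes with partial detection the fitted difference rests in part on background. For these 30 genes the largest limma adjusted p was 4.40e-08, and none had a second kept probe that pointed the other way. Many of them, such as Car4, Cldn6 and Satb1, had only 1 kept probe, so no other probe could disagree. The size of the differences of dim genes depends on the background correction, as for Pmch, whose log2 difference of 6.15 was 4.04 without the correction and 3.17 in the authors' deposited values.

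**Figure D1:**
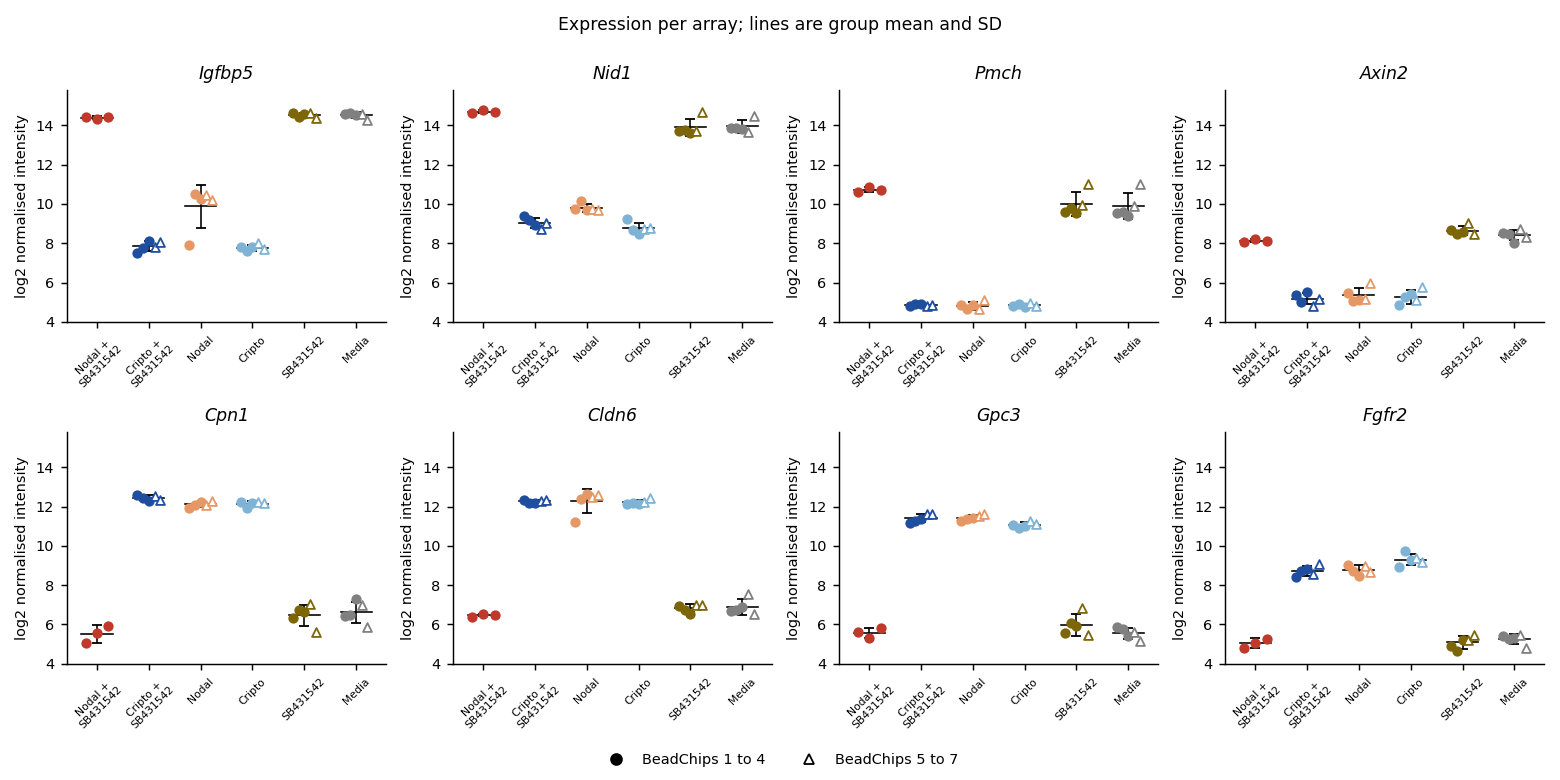
Log2 normalised intensity of 8 genes on each of 28 arrays in 6 groups, with filled circles for BeadChips 1 to 4, open triangles for BeadChips 5 to 7, and lines for the group mean and SD. Nodal with SB431542 arrays lie near SB431542 and Media arrays, and Cripto with SB431542 arrays lie near Cripto arrays. Nodal replicate 1 is the low Nodal point for Igfbp5 (7.89) and Cldn6 (11.24).

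Promoter sequences are shown for the genes with the largest change in each direction for which RefSeq listed one, 2 per direction (build GRCm38.p6, 250 bases before to 50 bases after the gene's start, 5′ to 3′). Capitals mark every match, on either strand, to 4 motifs. The GATA element was searched as AGATAA, the Smad element as GTCTG and the TATA box as TATAAA. The AP-1 element was searched as TGANTCA, where N is any base. The Pmch window held 1 match to each of the 4 motifs, with the AP-1 and GATA matches upstream of the TATA match. The Car4 window held a Smad and a TATA match, of which the TATA match lay in the 50 bases after the gene's start. No match lay in the Igfbp5 and Cpn1 windows.
Igfbp5, chr1:72874816-72875115, minus strand: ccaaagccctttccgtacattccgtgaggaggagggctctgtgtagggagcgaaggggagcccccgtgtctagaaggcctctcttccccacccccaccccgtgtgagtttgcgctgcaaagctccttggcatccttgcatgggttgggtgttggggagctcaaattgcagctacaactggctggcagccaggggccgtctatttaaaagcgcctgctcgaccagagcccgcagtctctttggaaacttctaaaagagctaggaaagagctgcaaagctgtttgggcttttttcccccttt
Pmch, chr10:88090822-88091121, plus strand: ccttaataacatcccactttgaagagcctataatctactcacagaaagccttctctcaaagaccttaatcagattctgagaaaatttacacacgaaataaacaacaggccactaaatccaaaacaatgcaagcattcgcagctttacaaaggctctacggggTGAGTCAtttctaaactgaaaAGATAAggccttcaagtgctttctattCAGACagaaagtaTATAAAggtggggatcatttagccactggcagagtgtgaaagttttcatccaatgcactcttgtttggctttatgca
Cpn1, chr19:43986471-43986770, minus strand: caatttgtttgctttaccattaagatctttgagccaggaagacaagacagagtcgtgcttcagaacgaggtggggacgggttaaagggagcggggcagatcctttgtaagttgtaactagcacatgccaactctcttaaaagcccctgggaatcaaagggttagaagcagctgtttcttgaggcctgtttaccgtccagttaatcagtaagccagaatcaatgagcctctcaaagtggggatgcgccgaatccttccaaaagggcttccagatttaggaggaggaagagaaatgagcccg
Car4, chr11:84957504-84957803, plus strand: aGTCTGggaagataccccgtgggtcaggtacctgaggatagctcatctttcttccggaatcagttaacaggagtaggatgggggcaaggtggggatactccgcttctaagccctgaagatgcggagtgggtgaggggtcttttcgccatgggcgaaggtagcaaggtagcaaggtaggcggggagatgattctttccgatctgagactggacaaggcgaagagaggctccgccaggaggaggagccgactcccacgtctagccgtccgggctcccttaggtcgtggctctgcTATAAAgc
The motifs were about as frequent in the promoters of both sets of changed genes as in those of the genes measured. A promoter was listed for 1351 of the 1682 genes at least 2-fold higher, 1163 of the 1440 genes at least 2-fold lower and 8134 of the 9951 genes measured. The Smad element lay in 46.7% of the first set, 50.6% of the second, 47.4% of measured genes and 49.7% of all 27025 promoters listed. The GATA element lay in 6.44%, 5.59%, 6% and 11.4% of these, the TATA box in 7.18%, 8.34%, 7.03% and 14.2%, and the AP-1 element in 4.81%, 5.42%, 4.57% and 7.93%. A match is a string of letters and not a bound site.

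Genes of the absorptive visceral endoderm went both ways, with the endocytic receptor genes lower in Nodal with SB431542. Of 20 measured genes of the list, 6 were higher, 10 were lower and 4 were not called (80% called, against 64.3% of all genes). The median log2 difference was -0.55 (-0.36 with undetected genes at their bound, -0.21 in the authors' deposited values) against -0.01 over all genes. The endocytic receptor genes fell together: Amn, which encodes amnionless, had levels of 7.15, 7.36 and 7.66 against 10.52, 10.24, 10.05, 10.34 and 10.35, a difference of -2.95 ± 0.25. Its partner Cubn fell by 2.21 ± 0.13 and Lrp2, which encodes megalin, by 1.79 ± 0.25. Cubn had levels of 9.84, 9.36 and 9.15 against 11.95, 11.48, 11.36, 9.76 and 9.79. The arrays of the groups overlapped, since those of BeadChips 6 and 7 lay lower, so the Cubn fall depends on the BeadChip term. Spink1, a trypsin inhibitor gene, fell by 4.40 ± 0.15, and the apolipoprotein genes had differences of -3.68 ± 0.26 (Apoe) and -3.08 ± 0.21 (Apoa2). Other serum protein genes were higher in Nodal with SB431542. Apoa1, Afp (alpha-fetoprotein) and Trf (transferrin) were not detected in Cripto with SB431542 and were higher by at least 6.01-fold, 2.16-fold and 1.89-fold, and Ttr (transthyretin) differed by 1.66 ± 0.20.

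Parietal endoderm genes were mostly higher. Of 17 measured genes, 14 were higher, 2 lower and 1 not called (94.1% called, against 64.3% of all genes). The median log2 difference was 0.82. Thbd, which encodes thrombomodulin, had levels of 12.74, 12.75 and 12.76 against 10.90, 11.21, 10.78, 9.56 and 9.47, a difference of 1.86 ± 0.15. The lower values in Cripto with SB431542 were the arrays of BeadChips 6 and 7, and the groups did not overlap. Sox7, a transcription factor gene of parietal endoderm, had 13.60, 13.38 and 13.55 against 11.12, 11.09, 11.00, 10.97 and 11.23. Stra6, the retinol transporter gene, differed by 1.77 ± 0.16 and Plat, the tissue plasminogen activator gene, by 1.30 ± 0.12, while Vim and Pth1r were the 2 lower genes at -0.54 ± 0.11 and -0.35 ± 0.10.

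Of 13 measured basement membrane genes, 9 were higher and 3 lower (92.3% called, against 64.3% of all genes), with a median of 0.50. Lamb1 (1.61 ± 0.27), Hspg2, which encodes perlecan (1.17 ± 0.31), and Col4a1 (0.54 ± 0.10) were higher. Lama1 (0.40 ± 0.10) and Lamc1 (0.43 ± 0.12) were called higher, but both reached the top of the quantile scale, 15.57, which limits their differences. Lama1 stood there on all 3 Nodal with SB431542 arrays and Lamc1 on Cripto with SB431542 replicate 4. Lama5 (-1.83 ± 0.26), Col18a1 (-1.59 ± 0.41, detected on 1 of 3 and 5 of 5 arrays) and Nid2 (-1.35 ± 0.13) were lower, so the nidogen genes Nid1 and Nid2 differed in opposite directions.

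Transcription factor genes of the lineage ranged from no call to more than 4-fold. Besides Sox7, which was higher by 2.70 ± 0.20, Foxq1 was lower at -1.53 ± 0.11 and Hnf4a at -0.63 ± 0.16. Gata6 had levels of 13.28, 13.28 and 13.38 against 13.47, 13.54, 13.36, 13.48 and 13.43 and was not called (-0.17 ± 0.11). Sox17 fell by 0.31 ± 0.11, and Gata4 and Foxa2 were higher by 0.69 ± 0.23 and 0.37 ± 0.12. Of 12 measured primitive endoderm genes 5 were higher and 5 lower (83.3% called, against 64.3% of all genes). Fgfr2, a receptor gene for fibroblast growth factors, was at least 8.18-fold lower, and Pdgfra, the receptor gene that marks primitive endoderm, was higher by 1.04 ± 0.16.

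Epithelial genes were lower as a group. Of 14 measured junction and keratin genes, 11 were lower, 1 was higher and 2 were not called (85.7% called, against 64.3% of all genes). The median was -1.82 (-1.25 with undetected genes at their bound). It was -0.79 without background correction and -0.49 in the authors' deposited values. Besides Cldn6, the protease inhibitor gene Spint1 had levels of 5.04, 5.41 and 5.46 against 9.98, 10.13, 10.06, 10.23 and 10.27 and was at least 21.9-fold lower. Cdh1, which encodes E-cadherin, fell by 2.07 ± 0.26 and was detected on 2 of 3 and 5 of 5 arrays, and the keratin genes Krt19, Krt18 and Krt8 fell by 1.98 ± 0.16, 1.74 ± 0.11 and 0.80 ± 0.10. Tjp1, which encodes the scaffold protein ZO-1, was the higher gene (0.61 ± 0.20). Of 10 measured mesenchymal genes 4 were higher and 3 lower (median 0.28, 70% called, against 64.3% of all genes). Zeb1, a repressor of E-cadherin, was higher by 2.33 ± 0.22 and Fn1 (fibronectin) by 1.53 ± 0.26, whereas Vim and Acta2 fell by 0.54 ± 0.11 and 1.22 ± 0.18.

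Within the Nodal pathway the ligand, co-receptor and receptor genes did not move one way. Of 25 listed genes 14 were measured, 6 higher, 6 lower and 2 not called (85.7% called, against 64.3% of all genes). Nodal, Tdgf1, which encodes Cripto itself, Lefty1 and Lefty2 had probes but did not pass the detection filter. Acvr1b, the gene of the receptor that SB431542 inhibits, had levels of 5.87, 6.06 and 5.80 against 7.85, 7.45, 7.65, 8.22 and 8.17, a fall of 1.66 ± 0.25. The type II receptor gene Acvr2b fell by 0.52 ± 0.13, while Acvr2a was detected on 3 of 3 and 0 of 5 arrays and was at least 1.28-fold higher. Cfc1, which encodes the other EGF-CFC protein Cryptic, was higher at 2.12 ± 0.25. Its levels were 10.85, 10.15 and 9.98 against 8.40, 7.61, 7.89, 5.11 and 5.27. The values 5.11 and 5.27, from BeadChips 6 and 7, lay below the lowest detected signal of their arrays (6.16 and 6.07). Media arrays had 10.57 to 10.77 on BeadChips 1 to 3 and 6.65 and 6.95 on BeadChips 5 and 6. The fitted Cfc1 difference thus rests in part on background. Pcsk6 and Furin, which encode proteases that cleave the Nodal precursor, fell by 1.49 ± 0.18 and 0.90 ± 0.15, and Smad2 and Smad3 were higher by 0.84 ± 0.16 and 0.46 ± 0.14.

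Genes widely used as readouts of Smad2/3 were split. Of 11 measured, 4 were higher, 4 lower and 3 not called (72.7% called), with a median of -0.26. The feedback repressor gene Skil had levels of 7.38, 7.46 and 7.04 against 8.77, 8.54, 8.84, 9.05 and 9.03, a fall of 1.58 ± 0.20, and Ccn1 fell by 3.0 ± 0.25. The feedback inhibitor gene Pmepa1 was higher by 0.93 ± 0.21 and the cyclin-dependent kinase inhibitor gene Cdkn2b by 1.36 ± 0.12, while Cdkn1a fell by 1.21 ± 0.12. Of 11 measured genes of the BMP pathway 5 were lower and 2 higher, 63.6% called, which is near the 64.3% of all genes. The direct targets Id1 and Id3 were lower, Id1 by 2.34 ± 0.19 on the log2 scale and Id3 at least 2.02-fold, and the ligand gene Bmp6 was at least 3.10-fold lower. Bmpr1a and Bmpr2, both receptor genes, were higher by 0.65 ± 0.22 and 0.90 ± 0.25.

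Wnt pathway genes were higher in 6 of 11 measured and lower in 1 (median 0.65). The share called was 63.6%, which is near the 64.3% of all genes. Axin2, a feedback target of beta-catenin signalling, had levels of 8.06, 8.19 and 8.13 against 5.37, 5.01, 5.50, 4.82 and 5.18. It was detected on no Cripto with SB431542 array and was at least 4.61-fold higher. The receptor genes Fzd7 and Fzd5 differed by 2.42 ± 0.36 and 2.33 ± 0.24 and the transcription factor gene Tcf7l1 by 1.43 ± 0.19. Lrp6, a Wnt co-receptor gene, fell by 0.64 ± 0.15, and the level of Ctnnb1, the gene of beta-catenin itself, was not called (-0.01 ± 0.14).

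Feedback genes of the ERK pathway and immediate early genes were lower in Nodal with SB431542. Of 17 measured, 13 were lower, 2 higher and 2 not called (88.2% called, against 64.3% of all genes). The median was -1.36 (-0.75 without background correction and -0.45 in the authors' deposited values). Dusp4, a phosphatase gene induced by ERK, had levels of 6.21, 5.83 and 5.79 against 8.64, 8.91, 9.08, 8.87 and 8.74, a fall of 2.87 ± 0.20. Dusp6 fell by 1.31 ± 0.15, and the transcription factor genes Etv5 and Etv4 were at least 4.30-fold and 3.08-fold lower. Junb (-1.46 ± 0.13), Fos (-1.36 ± 0.21), Ier3 (-1.36 ± 0.19) and Phlda1 (-1.34 ± 0.13) were lower as well. Egr1 was not called (-0.44 ± 0.21), and the inhibitor gene Spry2 and the phosphatase gene Dusp1 were the 2 higher genes. Spry2 was at least 1.57-fold higher and Dusp1 differed by 0.35 ± 0.15.

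Of the 8 measured genes for proteins described as partners or effectors of Cripto at the cell surface, 4 were lower and 1 was higher, 62.5% called, which is near the 64.3% of all genes. Gpc1, the glypican gene reported to link Cripto to Src, fell by 2.34 ± 0.20, Src by 0.53 ± 0.13 and Notch1, detected on 1 of 3 and 5 of 5 arrays, by 3.20 ± 0.43. Hspa5, which encodes GRP78, was higher by 0.95 ± 0.17. Glypican genes went both ways, since Gpc3 and Gpc1 were lower whereas Gpc4, with levels of 11.01, 11.04 and 10.80 against 7.65, 8.80, 8.62, 7.19 and 7.63, was higher by 2.36 ± 0.21. The heparan sulphate endosulfatase genes also differed, Sulf1 higher by 2.80 ± 0.21 and Sulf2 lower by 1.67 ± 0.25.

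Sterol synthesis genes were higher in 9 of 12 measured and lower in 1 (83.3% called, against 64.3% of all genes), with a median of 0.79. Sqle, which encodes squalene epoxidase, had levels of 12.92, 12.96 and 12.77 against 11.41, 11.70, 11.40, 11.59 and 11.68, a difference of 1.57 ± 0.17, and the groups did not overlap. Idi1 (1.87 ± 0.20), Fdps (1.46 ± 0.32) and Cyp51 (1.30 ± 0.25) were higher as well, and Pmvk was the lower gene (-0.65 ± 0.11). Fdps had levels of 13.36, 13.42 and 13.59 against 9.90, 12.38, 12.45, 12.70 and 12.53. Its low value on Cripto with SB431542 replicate 1 enters the fitted difference, and what part it had was not tested. Of 8 measured interferon response genes 6 were higher and 2 lower (100% called, against 64.3% of all genes). The median was 1.11 (0.59 without background correction and 0.32 in the authors' deposited values). Usp18 and Oas2 were at least 2.70-fold and 1.57-fold higher and Irf9 differed by 1.80 ± 0.17, while the membrane protein gene Ifitm3, with 8.74, 8.99 and 8.88 against 11.86, 12.80, 12.80, 13.14 and 13.13, fell by 3.87 ± 0.23.

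In the insulin-like growth factor system 5 of 11 measured genes were higher and 4 lower (81.8% called, against 64.3% of all genes). Igf2, an imprinted growth factor gene, was detected on no Cripto with SB431542 array and was at least 3.28-fold higher, and the insulin receptor gene Insr differed by 2.36 ± 0.23. The receptor gene Igf1r, with levels of 4.52, 4.98 and 5.27 against 6.99, 8.73, 8.22, 8.72 and 8.36, was at least 5.76-fold lower. Of 10 measured retinoid genes 3 were higher and 4 lower (70% called). By the fitted difference all 3 higher genes and 2 of the lower ones differed at least 2-fold. Cyp26a1, whose enzyme degrades retinoic acid, had 4.66, 5.08 and 5.03 against 9.38, 8.99, 9.16, 9.35 and 9.73 and was at least 12.5-fold lower, and Rbp4 was at least 4.07-fold lower. Of 18 measured replication and mitosis genes 10 were lower and 5 higher (median -0.65, 83.3% called). The G1 cyclin gene Ccne1 (-2.20 ± 0.20), Aurka (-1.60 ± 0.14) and Cdk1 (-1.55 ± 0.19) were among the lower and Top2a (1.63 ± 0.48) among the higher. Of 18 measured stress response genes 9 were higher and 7 lower (88.9% called). Chaperone genes such as Hsp90b1 (1.04 ± 0.18) and Pdia4 (1.05 ± 0.21) were higher and the transcription factor gene Atf3 fell by 2.62 ± 0.23.

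**Figure D2:**
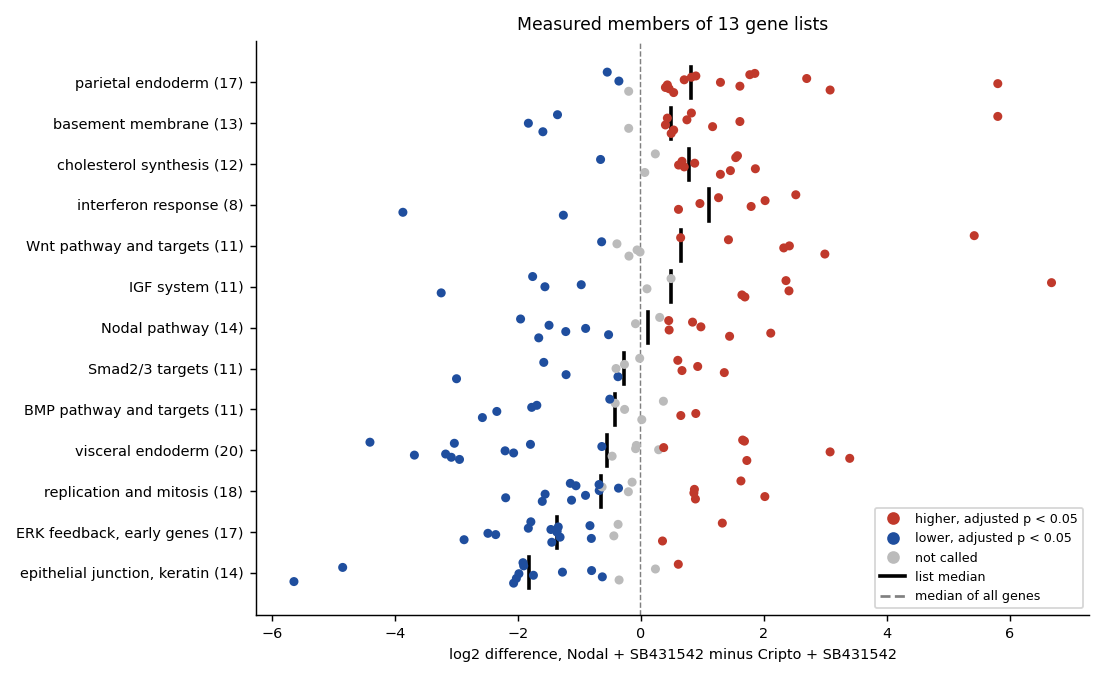
Log2 difference, Nodal with SB431542 minus Cripto with SB431542, of each measured member of 13 gene lists, with the number measured in brackets, colours for genes called higher, called lower or not called, a bar for the list median and a dashed line for the median of all genes (-0.01). List medians run from 1.11 for the interferon response to -1.82 for epithelial genes, and every list shown has members on both sides of 0.

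The difference between the proteins was much larger with the inhibitor than without it. The median absolute log2 difference over all genes was 0.646 between Nodal with SB431542 and Cripto with SB431542 and 0.234 between Nodal and Cripto (0.236 without Nodal replicate 1). Nodal and Cripto differed in 2495 genes (25.1% of genes tested; 2863 genes without Nodal replicate 1), of which 184 differed at least 2-fold (254 without that array). The change of the difference, tested as the difference with SB431542 minus the difference without, was called for 4750 genes (47.7% of genes tested), 2286 higher (23%) and 2464 lower (24.8%), and for 5160 genes without Nodal replicate 1.

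Several genes differed with the inhibitor and were not called without it. Cldn6, detected on every array of the 4 groups, differed by -5.64 ± 0.23 with the inhibitor and by 0.02 ± 0.19 without it (0.27 without Nodal replicate 1), and the change was -5.66 ± 0.30 (limma adjusted p = 7.82e-12). Cpn1 had -7.08 ± 0.25 and -0.05 ± 0.20 (-0.06), and Gpc3 had -5.85 ± 0.22 and 0.38 ± 0.19 (0.42). Pmch, Sdk1 and Tmem176b were detected on all 3 Nodal with SB431542 arrays and on no Cripto with SB431542, Nodal or Cripto array, so they have a bound with the inhibitor and no measured difference without it.

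Some genes differed in opposite directions with and without SB431542. Cyp26a1 was at least 12.5-fold lower in the inhibited pair and was higher in Nodal than in Cripto without the inhibitor, by 1.31 ± 0.21 (1.5 without Nodal replicate 1). Dusp6 had -1.31 ± 0.15 with the inhibitor and 1.23 ± 0.12 without it (1.27 without that array), and its change was -2.54 ± 0.20 (limma adjusted p = 2.31e-09). Fos had -1.36 ± 0.21 and 0.96 ± 0.17 (0.74), Apoe -3.68 ± 0.26 and 0.83 ± 0.21 (1.02), Krt19 -1.98 ± 0.16 and 0.86 ± 0.13 (0.91), and Cdh1 -2.07 ± 0.26 and 0.88 ± 0.21 (0.63). Each was called in both pairs and for the change, with and without Nodal replicate 1. Egr1, not called with the inhibitor, was higher in Nodal than in Cripto without it (1.46 ± 0.17; 1.27 without that array). For the 17 measured ERK feedback and early genes the change was called lower for 13 and higher for 0, against 24.8% and 23% of all genes, and 7 of the 17 were detected on no array of 1 group of the inhibited pair. For the 12 measured sterol synthesis genes the change was called higher for 9 and lower for 0.

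Other genes differed in the same direction in both pairs. Igfbp5 differed by 6.68 ± 0.38 with the inhibitor and 2.11 ± 0.31 without it, or 2.65 without Nodal replicate 1, whose level of 7.89 lay below the 10.21 to 10.53 of the other Nodal arrays. Col6a1 had 5.39 ± 0.38 and 1.45 ± 0.31 (1.99 without that array) and Ndrg1, a hypoxia-responsive gene, 3.10 ± 0.30 and 1.25 ± 0.25 (1.61). Ccne1 had -2.20 ± 0.20 and -1.19 ± 0.17 (-1.41). Among genes at least 2-fold and called in both pairs, 120 had the same direction and 10 the opposite one, or 156 and 14 without Nodal replicate 1.

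The inhibited pair resembled a pair of groups of which it used no array, SB431542 against Cripto. The 3 Nodal with SB431542 arrays lay at a root mean square log2 difference of 0.356 to 0.436 from the SB431542 mean and 0.361 to 0.441 from the Media mean, but 0.964 to 0.978 from the Nodal mean. The 5 Cripto with SB431542 arrays lay at 0.296 to 0.555 from the Cripto mean and 1.04 to 1.09 from the SB431542 mean. Cells given Nodal with the inhibitor were thus nearest to cells given no protein, and cells given Cripto with the inhibitor were nearest to cells given Cripto alone. These distances are descriptions with no test.

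**Figure D3:**
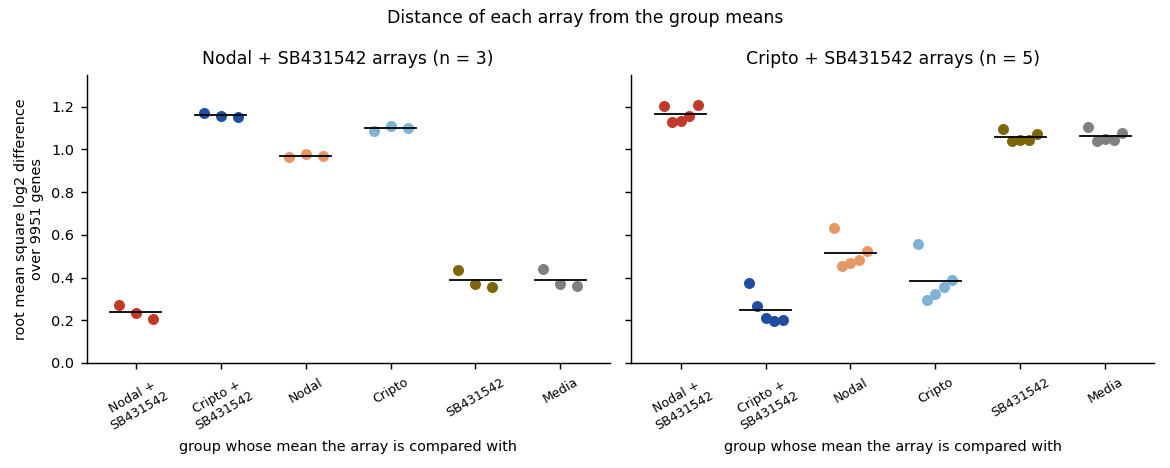
Root mean square log2 difference over 9951 genes between each array and the mean of each of 6 groups, with the array itself left out of its own group and BeadChip effects taken out. Points are arrays and bars their means. The Nodal with SB431542 arrays on the left lie at 0.356 to 0.441 for SB431542 and Media and at 0.964 or more for Nodal and both Cripto groups. The Cripto with SB431542 arrays on the right lie at 0.633 or less for Nodal and both Cripto groups and at 1.04 or more for SB431542, Media and Nodal with SB431542.

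SB431542 and Cripto differed in 6292 genes (63.2% of genes tested). Of the 3158 genes higher in the inhibited pair, 2327 were also higher in SB431542 than in Cripto, 23 were lower and 808 were not called. Of the 3238 genes lower in the inhibited pair, 2494 were also lower, 22 were higher and 722 were not called. The pairs share no array, though they share the BeadChip estimates of the fit. The genes at least 2-fold higher in the inhibited pair had a median log2 difference of 1.55 there and 1.17 in SB431542 against Cripto, and those at least 2-fold lower had -1.42 and -1.15. All 30 genes with the largest differences were called in the same direction, with Igfbp5 at 6.76, Nid1 at 5.09, Cpn1 at -5.67, Gpc3 at -5.06 and Cldn6 at -5.40 in SB431542 against Cripto.

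**Figure D4:**
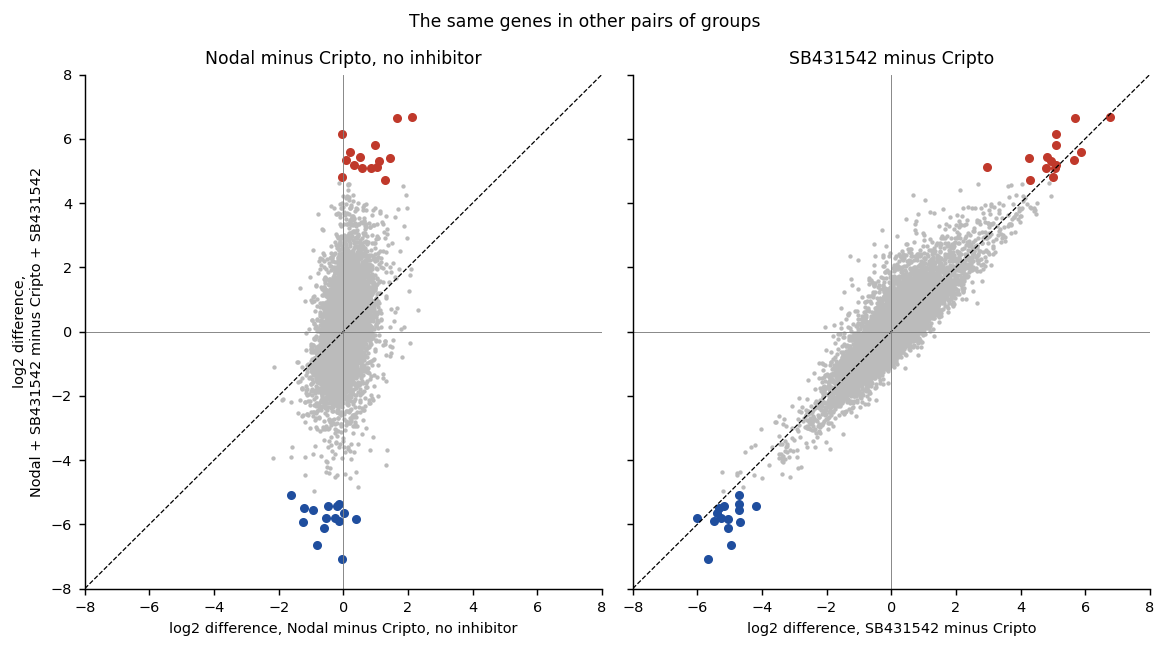
Log2 difference of each of 9951 genes in the inhibited pair (vertical axis, Nodal with SB431542 minus Cripto with SB431542) against Nodal minus Cripto without inhibitor (left) and SB431542 minus Cripto (right), with the 15 largest higher genes in red, the 15 largest lower genes in blue and a dashed line of equality. On the left the coloured genes lie between -1.61 (Gpx2) and 2.11 (Igfbp5) on the horizontal axis (-2.21 and 2.65 without Nodal replicate 1), and on the right from 2.98 (Spock1) to 6.76 (Igfbp5) for the red genes and from -6.03 (Rnf130) to -4.20 (Tns4) for the blue ones.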

How the data were processed

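Per the file headers, the authors deposited for each array the bead-averaged signal, a linear intensity not scaled between arrays, with its detection p-value (45281 probes). A matrix of the authors' processed values, deposited on a log2-like scale by an unstated transformation, served as an alternative. The submitters' processing notes name BeadStudio and lumi. Here, limma 3.58.1 under R 4.3.3 was used for normexp background correction estimated from the detection p-values with an offset of 16, quantile normalisation and log2. Probes with a detection p below 0.01 on at least 3 arrays were kept (18471). Platform symbols, updated through RefSeq, named 34885 probes with 1 gene, 18 with several and 10378 with none, and the probe with the highest mean stood for each gene (9951 genes).

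A linear model with group and BeadChip as fixed terms was fitted to all 28 arrays (16 residual and 4.19 prior degrees of freedom) with eBayes moderation, checked on simulated data. Differences are two-sided limma contrasts, Nodal with SB431542 minus Cripto with SB431542, with Benjamini-Hochberg adjusted p below 0.05 as a call and limma standard errors. The groups share 2 of 7 BeadChips, numbered 3 and 4 here. A gene detected on none of a group's arrays has only a bound there, given as at least N-fold: the brighter group's mean against, on each array of the dimmer group, the higher of the lowest detected signal and the probe's own, without BeadChip adjustment. The number of arrays limits the precision.

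The text names the 15 called genes with the largest positive and the 15 with the largest negative difference whose sign was the same on both shared BeadChips, the 5 in each direction for the change of the difference, and members of 29 gene lists (490 memberships: 314 measured, 144 with no detected probe, 32 with no probe named). Members and lists were chosen with earlier results of these data known, so the lists carry no test of their own and are described by counts and medians. Alternatives were median centring, no background correction, the authors' deposited values, no detection filter, no or a random BeadChip term, fewer BeadChips, brightness as a covariate, eBayes with trend and robust options, and leaving out each replicate.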

Additional observations from a re-analysis of the deposited data

Results flagged for a closer look

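The difference between Nodal and Cripto changed with the inhibitor for 4750 genes, by a test of the change itself in the limma fit. The 5 largest fitted changes upward, with SB431542 minus without, were Pmch (6.18), Tmem176b (5.37), Sdk1 (5.28), Spink4 (4.99) and Tnik (4.92). These 5 genes were detected on no Cripto with SB431542 array, and Pmch, Tmem176b and Sdk1 on no Nodal or Cripto array either, so their values are fitted against background, are not measured sizes and have no order. The 5 largest fitted changes downward were Cpn1 (-7.03), Gpc3 (-6.23), Car4 (-5.85), Ddc (-5.77) and Cldn6 (-5.66). Of these, Cldn6 was detected on all 3 Nodal with SB431542 arrays, Gpc3 and Ddc on 2, Cpn1 on 1 and Car4 on 0. The largest adjusted p of these 10 genes was 1.79e-08.

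Of the 30 genes with the largest differences, 3 had 1 Cripto with SB431542 array far from the other 4. Other members of the gene lists, such as Fdps, were not examined in this way. Gpx2 had a log2 level of 7.94 on replicate 1, where the nearest other array had 9.73. Car4 had 11.82 on replicate 1, next to 11.32, and Klre1 had 5.42 on replicate 3, next to 4.87, in a range where the gene was not above background. Chance gives such a gap in about 1 in 20 groups, and 31 groups were examined. All Nodal with SB431542 arrays lay below the lowest Gpx2 and Car4 values and above the highest Klre1 value.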

How the results depend on the processing

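The number of genes called for Nodal with SB431542 against Cripto with SB431542 ran from 5613, with no BeadChip term, to 6472, with no detection filter, over 10 alternatives. The fit with no detection filter tested 19057 genes instead of 9951, so the share called was lower there. The number ran from 5749 to 6424 when each array of the pair was left out in turn. Genes called at 2-fold fell to 1803 without background correction and 1310 in the authors' deposited values, against 3122; the cause was not tested. For the 30 named genes of the pair all 540 values under the alternatives kept their direction and call, as did all 270 for the 10 named genes of the change of the difference. These genes were chosen for the largest differences in the same arrays, so this says little about other genes. The count for that change ran from 3598 to 4774 over 9 alternatives and from 4063 to 5160 with 1 array left out. Of the genes called for the inhibited pair, 3911 to 4825 were called with the same sign in SB431542 against Cripto under 9 alternatives, and Nodal against Cripto without inhibitor gave 1986 to 2863 calls with 1 array left out, chosen after the data were seen. With BeadChip as a random block the correlation was 0.409 and 6267 genes were called. The median of the Nodal pathway, primitive endoderm, retinoid, stress response, glypican, glycolysis, mesendoderm and anterior visceral endoderm lists changed sign under at least 1 scaling, so no direction is given for them. No paired analysis was possible because the labels carry no replicate numbers, and the numbers used here follow accession order. Arrays were compared within BeadChips through the BeadChip term, and a fit on the 2 BeadChips with both groups called 6289 genes.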

Other observations

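The counts of the next gene groups in Nodal with SB431542 against Cripto with SB431542 stand beside 64.3% of all genes called. Of 10 measured imprinted genes 5 were higher and 3 lower (80% called). Grb10, an adaptor of growth factor receptors, had log2 levels of 4.76, 4.81 and 4.73 against a median of 10.17 and a highest level of 10.55 and was at least 23.9-fold lower, while Peg10 was higher by 2.41 ± 0.50 and Impact by 1.5 ± 0.18. Of 8 measured genes of cyclin-dependent kinase inhibitors and related proteins 2 were higher and 2 lower (50% called), and Cdkn2a was at least 7.05-fold lower. Of 15 measured glycolysis and hypoxia genes 4 were higher and 5 lower (60% called). Ndrg1 had 13.41, 13.43 and 13.53 against 10.69, 10.52, 10.65, 10.32 and 10.48, and the angiogenic factor gene Vegfa was higher by 1.21 ± 0.12. Of 12 measured growth factor receptor and ligand genes 5 were higher and 5 lower (83.3% called), with Fgf10 higher by 2.52 ± 0.20 and Pdgfa lower, at -2.03 ± 0.18.

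Another list, with Satb1, Sox5, Ikzf1, Runx1 and Tnik as its 5 measured genes, was chosen on these samples and so is no independent evidence. Of these genes 4 were higher. Sox5 had levels of 10.44, 10.29 and 10.36 against 5.92, 5.69, 5.67, 5.42 and 5.79, and Ikzf1 had 10.04, 9.87 and 10.02 against 5.88, 6.15, 5.50, 5.57 and 5.42. Runx1 was not called (-0.01 ± 0.20). Few genes of other lineages were detected: 6 of 15 epiblast genes were measured (2 higher, 2 lower), 3 of 12 fibroblast genes (1 higher, 1 lower), 3 of 9 anterior visceral endoderm genes (1 higher), 2 of 12 mesendoderm genes (1 higher, 1 lower) and 2 of 12 trophoblast genes (both lower).

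On the array of SB431542 replicate 5 and of Media replicate 5, the distance to the mean of the Nodal with SB431542 arrays was 0.286 and 0.274, against 0.402 to 0.440 for the other SB431542 arrays and 0.420 to 0.486 for the other Media arrays. These 2 arrays lay on BeadChips 7 and 6, and the Nodal with SB431542 arrays on BeadChips 1, 3 and 4.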
